A study of Mus musculus with 6 samples.

Results

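Erythroid and haemoglobin genes were described on 6 whole-brain arrays of neonatal mice as a reading of how much red cell RNA each RNA pool held. The genes are Hbb-b2, Alas2, Slc4a1, Epb42, Hemgn and Ahsp. They were chosen from the treated-against-vehicle values of these same arrays, in which Slc4a1, Alas2 and Hbb-b2 had already stood out in females, together with further genes of the red cell lineage. All probe sets that the platform annotation pairs with 1 of these genes alone were taken, which gave 9 probe sets of 5 genes among 45037 probe sets and 18193 genes. Ahsp, the chaperone of alpha globin, matched no probe set in that annotation and is not analysed here. Because the treated-against-vehicle differences were in view when the genes were chosen, they are given as descriptions with no test, and the test of the sexes against each other is the one reported.

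The mice were C57BL/6 neonates. On postnatal day 2 they received an intraperitoneal injection of 1 mg testosterone propionate (TP, a long-acting ester of testosterone) in 20 µL sesame oil, or the 20 µL of oil alone (vehicle), and the brain was taken on postnatal day 6. Each array carried RNA pooled from 6 mice of 1 sex and treatment. There were 2 arrays of TP females, 2 of vehicle females, 1 of TP males and 1 of vehicle males, so the male arrays have no replicate. The second female array of each treatment is labelled a replica, and whether it came from other mice is not given, so the spread between arrays may be technical. The labels give no step that flushes blood from the vessels before dissection.

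Red cells are made in the neonatal liver, spleen and bone marrow and reach the brain only in its blood vessels. A mature red cell has no nucleus, but young red cells (reticulocytes) still carry globin messenger RNA together with RNA for haem synthesis and for the membrane skeleton. In a bulk brain sample such RNA therefore reads mainly as blood in the vessels, although marrow of attached skull also holds it. Fewer red cells and less RNA per red cell cannot be told apart in these data.

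The values were deposited log2 levels made with RMA, a method that corrects background, normalizes between arrays and summarizes each probe set. Array medians lay between 5.69 and 5.74 log2 units. A probe set with a mean below the 40th percentile of all probe sets, at 4.98 log2 units, is called dim, since no detection call was used. All 12 genes of a brain identity list were above that level, among them Stmn2 of neurons, and their summed linear level differed little, from 50700 to 51135. The sex check set 1 array apart. Xist, which coats the inactive X chromosome of female cells, stood at 12.61 to 12.83 on the female arrays, at 5.29 on the male vehicle array and at 10.45 on the male TP array. The Y-linked gene Eif2s3y stood at 9.12 on the male TP array and 9.16 on the male vehicle array, against at most 3.09 on the female arrays. The library labelled male TP thus carried Xist and Y-linked signal together. The sex comparison and the order of the treatments are also given without it, while a difference between the 2 male arrays cannot be given without it.

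Alas2 encodes the erythroid form of 5-aminolevulinate synthase, the first enzyme of haem synthesis, and is read by 1 probe set (1451675_a_at). It stood at 6.53 and 6.58 log2 units on the vehicle female arrays, at 6.77 and 6.98 on the TP female arrays, at 6.64 on the male vehicle array and at 6.65 on the male TP array. Both TP female arrays lay above every other array, and the male arrays lay between the female groups. The female difference was 0.32 log2 units (SE 0.10), or 1.25-fold, against 0.0043 in males.

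Erythroid genes are classically controlled by GATA1, a transcription factor that binds GATA letters, so promoters are shown for the 3 of 6 members that matched the RefSeq promoter table used here (mouse assembly GRCm38.p6, 250 bases before to 50 after the start), to compare Alas2 with the dim members Epb42 and Hemgn. Capitals mark AGATAA, or TTATCT where it lies on the other strand. The windows are chrX:150547167-150547466 on the plus strand for Alas2, chr2:121036828-121037127 on the minus strand for Epb42 and chr4:46404134-46404433 on the minus strand for Hemgn, each written in the direction of the gene.
Alas2: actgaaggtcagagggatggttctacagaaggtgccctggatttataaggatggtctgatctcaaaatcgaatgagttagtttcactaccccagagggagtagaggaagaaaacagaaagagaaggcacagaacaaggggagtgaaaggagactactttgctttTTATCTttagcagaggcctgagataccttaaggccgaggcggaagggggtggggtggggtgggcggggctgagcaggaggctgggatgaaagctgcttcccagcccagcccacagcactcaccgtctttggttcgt
Epb42: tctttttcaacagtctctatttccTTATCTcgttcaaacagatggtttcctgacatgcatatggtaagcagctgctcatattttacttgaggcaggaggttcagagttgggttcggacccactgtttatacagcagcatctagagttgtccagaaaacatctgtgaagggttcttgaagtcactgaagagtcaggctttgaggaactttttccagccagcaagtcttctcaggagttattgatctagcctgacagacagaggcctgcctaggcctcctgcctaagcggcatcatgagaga
Hemgn: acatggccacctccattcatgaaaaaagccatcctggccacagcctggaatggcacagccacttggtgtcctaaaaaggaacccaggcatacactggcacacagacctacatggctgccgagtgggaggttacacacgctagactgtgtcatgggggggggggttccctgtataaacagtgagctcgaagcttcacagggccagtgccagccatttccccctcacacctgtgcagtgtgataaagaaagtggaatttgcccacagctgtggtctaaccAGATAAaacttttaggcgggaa

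Each of these 3 windows held AGATAA 1 time. In Alas2 its first base lay 86 bases before the start and in Epb42 226 bases before it, both on the opposite strand, and in Hemgn it lay 28 bases after the start on the gene's own strand. Of 32851 promoter windows of this length, 11.2% held AGATAA on either strand. The shorter GATAA, not marked beyond AGATAA, occurred 2 times in the Hemgn window and 1 time each in those of Alas2 and Epb42. Of all windows 25.4% held GATAA on either strand. The letters CACCC, read on both strands as the core of a site for the erythroid factor Klf1, occurred 3 times in the Alas2 window and 0 times in those of Epb42 and Hemgn, and 57.5% of all windows held them. AGATAA and CACCC do not overlap. These are matches of letters and were not tested for binding.

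Hbb-b2 encodes an adult beta-globin chain, which pairs with alpha chains to form haemoglobin, and had 2 probe sets. The first (1427865_at) stood at 6.55 and 6.68 on the vehicle female arrays, at 6.95 and 6.86 on the TP female arrays, at 6.75 on the male vehicle array and at 6.98 on the male TP array. The 3 TP arrays all lay above the 3 vehicle arrays. The female difference was 0.29 (SE 0.09), or 1.22-fold, and the male difference 0.23, or 1.18-fold. The other (1427866_x_at) was dim and is of a type whose probes can bind related transcripts. It stood at 4.52 and 4.74 on the vehicle female arrays and at 4.77 and 4.69 on the TP female arrays, which overlap. Its male arrays stood at 4.11 with vehicle and 4.74 with TP, a difference of 0.63. The male vehicle array was the lowest of the 6, and the male TP value lay within the female range.

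Slc4a1 encodes band 3, the anion exchanger of the red cell membrane, and had 3 probe sets. The first (1416464_at) stood at 5.16 and 5.28 on the vehicle female arrays, at 5.47 and 5.55 on the TP female arrays, at 5.47 on the male vehicle array and at 5.55 on the male TP array. Here the vehicle females stood low and the other 4 arrays lay together. The female difference was 0.29 (SE 0.09), or 1.22-fold, and the male difference 0.08. The second (1434502_x_at) stood at 5.03 and 4.83 with vehicle and 4.96 and 5.25 with TP in females, and in males at 4.98 with vehicle and 5.13 with TP, so the female groups overlapped around a difference of 0.18 (SE 0.13). The third (1431743_a_at) was dim, ranged over 0.40 log2 units and had a female difference of -0.13 (SE 0.13). The 3 probe sets of Slc4a1 therefore did not share a direction.

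Epb42, the protein 4.2 that ties band 3 to the membrane skeleton, and Hemgn, a nuclear protein of blood cell precursors, were read by dim probe sets alone. The probe set 1417338_at of Epb42 ranged from 3.79 to 3.995, with a female difference of -0.03 (SE 0.08). The other, 1417337_at, stood at 2.66 and 2.75 on the vehicle female arrays, against 2.40 and 2.48 on the TP female arrays and, in males, 2.46 with vehicle and 2.44 with TP. It went the opposite way to Alas2 in females (-0.27, SE 0.08), at a level close to the lowest value on any array, 2.11. Hemgn ranged from 2.69 to 3.10, and its 2 vehicle female arrays differed by 0.32, more than the female difference of -0.09 (SE 0.15).

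**Figure D1:**
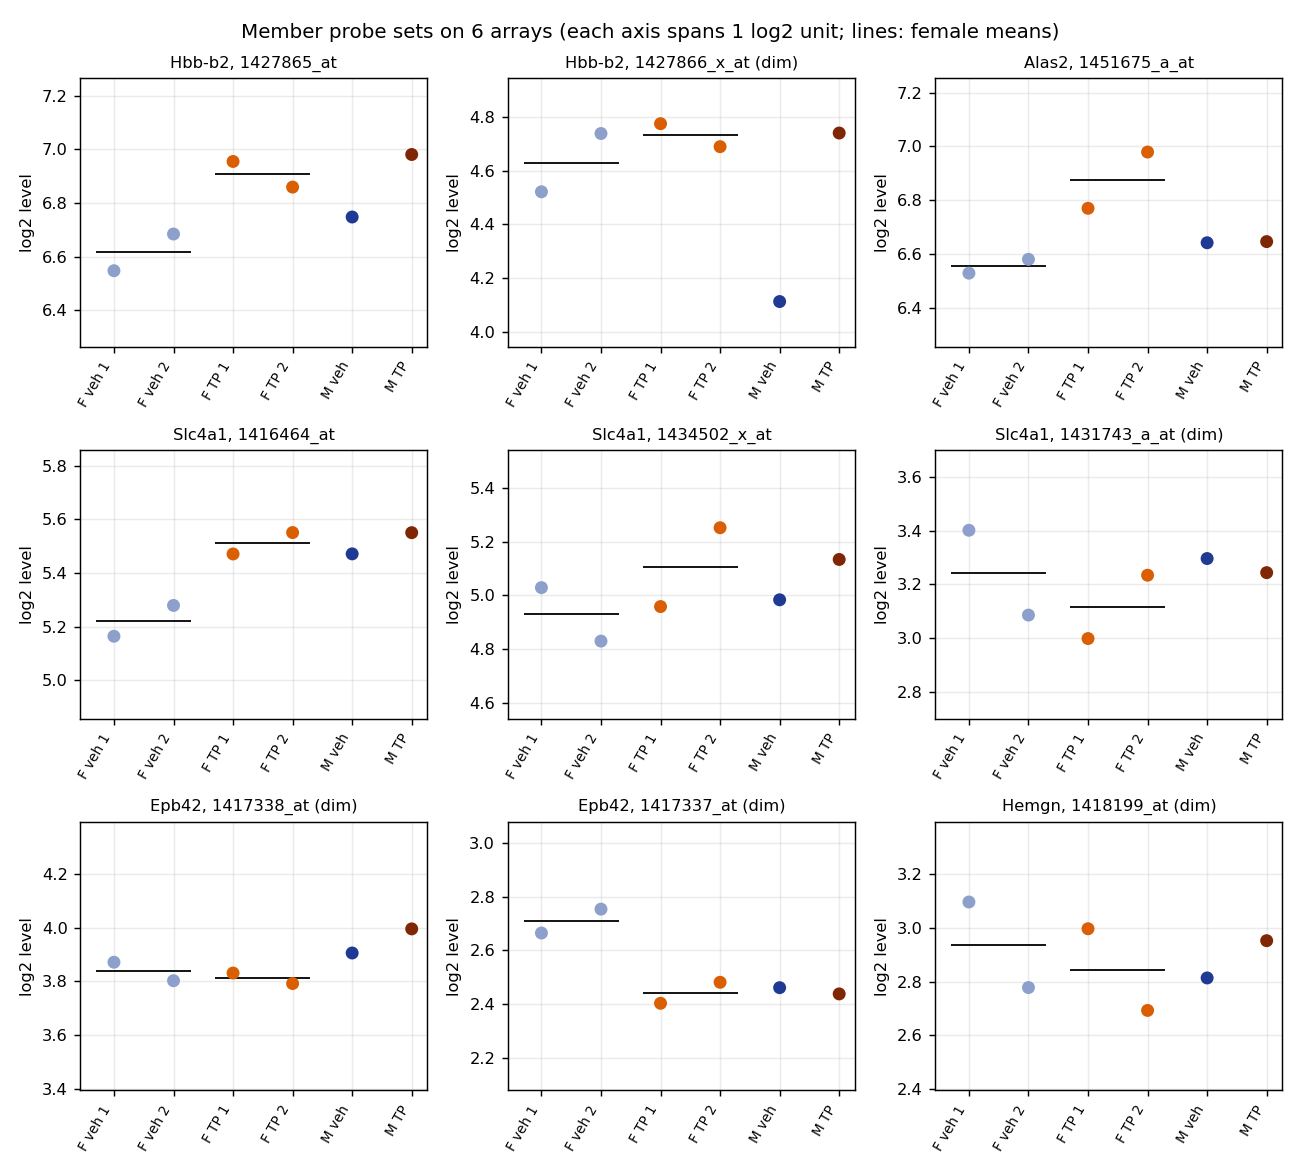
Log2 level of each of the 9 member probe sets (1 panel each, every vertical axis spanning 1 log2 unit) on the 6 arrays, with lines at the female group means. Vehicle females (light blue) lie below TP females (orange) for the first probe sets of Hbb-b2, Alas2 and Slc4a1, while the dim probe sets show no common order.

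Of the 9 probe sets, 4 were above the dim level (Alas2, 1 of Hbb-b2 and 2 of Slc4a1). Both TP female arrays lay above both vehicle female arrays for 3 of 9 probe sets, where 17.1% of all probe sets did, and below them for 1 of 9, where 21.3% did. All 3 TP arrays lay above all 3 vehicle arrays for 2 of 9 (Alas2 and 1427865_at of Hbb-b2), where 6.83% of all probe sets did. For Alas2 this rests on a margin of 0.0043 log2 units between the 2 male arrays. Without the male TP array, both TP female arrays lay above all 3 vehicle arrays for 2 of 9, where 12.1% of all probe sets did. The count over all 6 arrays was 3 of 9 with the arrays centred on their median or quantile-normalized again, because on the deposited scale 1416464_at of Slc4a1 stood at 5.4714 on the first TP female array and at 5.4718 on the male vehicle array. Nothing is read from these shares, since the female values chose the genes. The median female difference over the 9 probe sets was 0.10 log2 units against -0.01 over all probe sets. It was 0.060 without TP female array 1, 0.060 without TP female array 2, 0.067 without vehicle female array 1 and 0.076 without vehicle female array 2. Over the 4 above the dim level it was 0.29 against -0.0045 for all probe sets above it. In males the median over the 9 was 0.09 against -0.02 for all, and single differences from -0.05 to 0.63 are to be read beside an SD over all probe sets of 0.21 between these 2 arrays. All 9 female differences kept their sign under either other scaling, and of the male ones 1417337_at of Epb42 changed sign, from -0.02 to 0.0080, when quantile-normalized again.

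The adult globin genes are near-identical copies, and the brightest globin signal lay in 4 probe sets that the annotation pairs with several of them. They name no single gene, are no members and were added after their values were seen. The probe set of several beta-globin genes (1417184_s_at) stood at 13.12 and 13.06 on the vehicle female arrays, at 13.34 and 13.42 on the TP female arrays, at 13.20 on the male vehicle and at 13.38 on the male TP array. Of the 3 alpha-globin probe sets, 1428361_x_at stood at 13.96 and 13.88 with vehicle and 14.14 and 14.18 with TP in females, and in males at 14.00 with vehicle and 14.03 with TP. For 1417714_x_at the female values were 9.98 and 9.75 with vehicle and 10.37 and 10.26 with TP, and the male values 10.08 with vehicle and 10.21 with TP. In all 4 probe sets the 3 TP arrays lay above the 3 vehicle arrays, where 6.83% of all probe sets did, and vehicle females were lowest. The order of the treatments also held under either other scaling. Without the male TP array the 2 TP female arrays lay above the 3 vehicle arrays in 4 of 4, where 12.1% of all probe sets did. Nothing is read from these counts, since the values were seen first and 3 of the 4 read the same alpha-globin genes. Female differences ran from 0.24 (SE 0.08) to 0.45 (SE 0.11), or 1.18-fold to 1.36-fold, and male ones from 0.03 to 0.18. The values of 3 of these probe sets lie close to the highest on the arrays, 14.53, and whether they are compressed there was not tested.

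**Figure D2:**
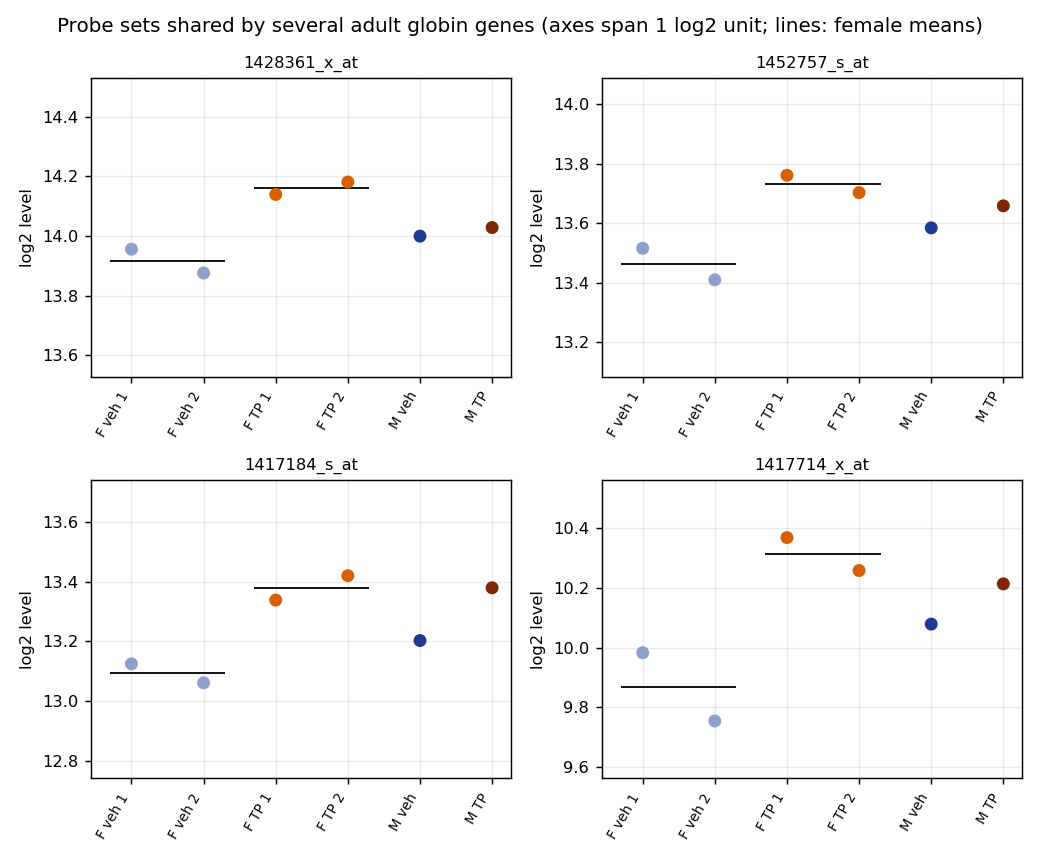
Log2 level of the 4 probe sets shared by several adult globin genes on the 6 arrays (each vertical axis spans 1 log2 unit, lines are female group means). The order is the same in all 4 for the treatments: both vehicle females lowest, then the male vehicle array, with every TP array above.

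Centred on their own means, these 4 probe sets averaged 0.15 and 0.14 on the TP female arrays, 0.07 on the male TP array, -0.03 on the male vehicle array and -0.11 and -0.22 on the vehicle female arrays. The highest array exceeded the lowest by 0.38 log2 units, or 1.298-fold. The 4 member probe sets above the dim level spread by 0.34 log2 units or 1.27-fold, from the first vehicle female to the second TP female array. Vehicle females were lowest by both readings, and nothing is read from this. The female values chose the members, and the shared globin probe sets were added after their values were seen.

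Males were compared with females over both treatments, adjusting for treatment, a contrast that did not choose the genes. By limma 0 of the 9 member probe sets passed (adjusted p from 0.461 to 0.985), where 0.0222% of all probe sets did, and 0 had an unadjusted p under 0.05, where 12.1% did. The difference of males minus females was -0.07 (SE 0.10) for Alas2, 0.10 (SE 0.07) for 1427865_at and -0.25 (SE 0.13) for 1427866_x_at of Hbb-b2, and 0.14 (SE 0.08) for 1416464_at of Slc4a1. Both male arrays lay above all 4 female arrays for 1 of 9, the dim 1417338_at of Epb42 (0.13, SE 0.07, limma adjusted p = 0.494), where 8.58% of all probe sets did. The median over the 9 was 0.04 against -0.0063 over all probe sets, and it turned to -0.0079 with probe sets averaged per gene and to -0.0031 without vehicle female array 2. Without the male TP array the median was 0.05 and the smallest adjusted p of a member 0.504 by limma, with 0 passing and 1 at an unadjusted p under 0.05, where 8.52% of all probe sets were. That fit leaves 1 male array, and its sex term is the male vehicle array minus the mean of the vehicle females. The vehicle female values had a part in choosing the genes, so nothing is read from its median, p-values or counts. The same holds for the TP females in the fit without the male vehicle array. Single values moved without the male TP array. Alas2 turned to 0.09 (SE 0.12), 1427866_x_at of Hbb-b2 went to -0.52 (SE 0.12), 1416464_at of Slc4a1 to 0.25 (SE 0.11), 1417337_at of Epb42 to -0.25 (SE 0.10) and 1417338_at of Epb42 to 0.07 (SE 0.10). For 1417338_at the male vehicle array alone lay above all 4 female arrays, as it did for 23.7% of all probe sets. Without the male vehicle array 1427866_x_at stood at 0.0079, Alas2 at -0.23 and 1416464_at at 0.04. For the shared globin probe sets the sex difference ran from -0.02 to 0.06 (SE 0.07 to 0.10, limma adjusted p from 0.773 to 0.919). Without the male TP array it ran from 0.08 to 0.21. Nothing is read from that range, since the low vehicle female values were seen before these probe sets were added. Over the 9 member probe sets the SE ran from 0.07 to 0.13, and a p that misses the threshold does not show that the sexes are alike.

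**Figure D3:**
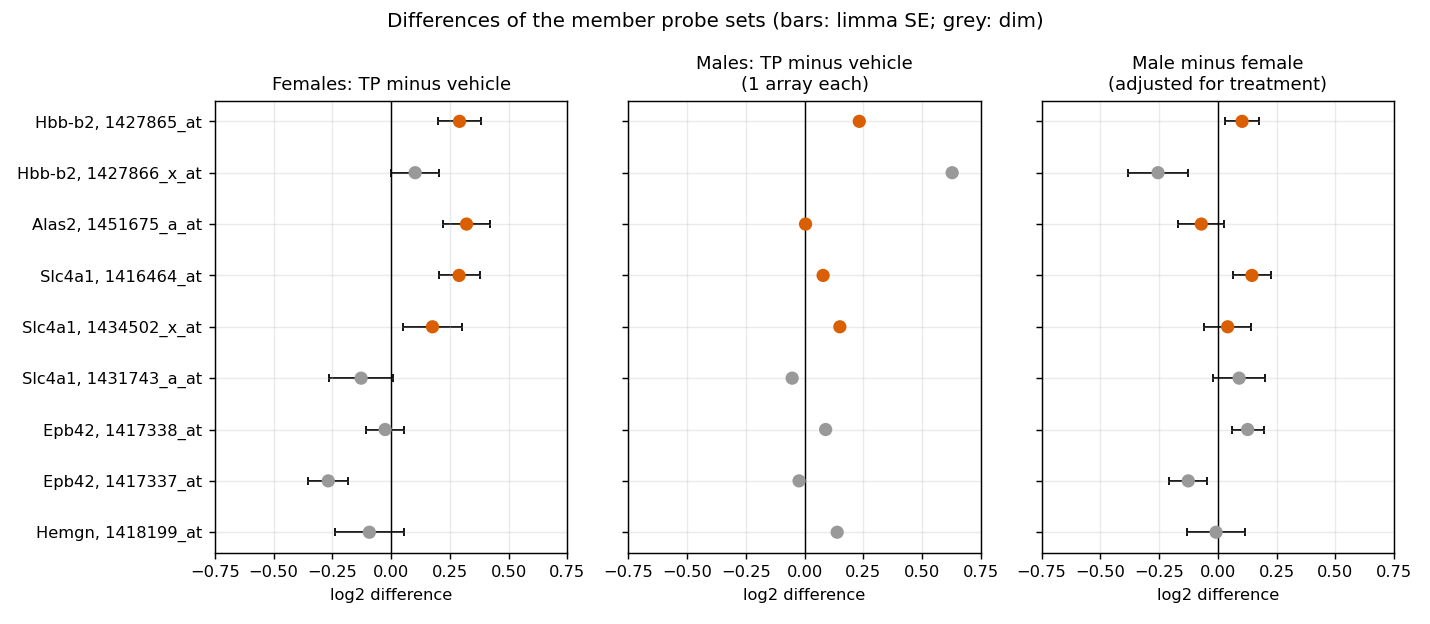
Log2 differences of the 9 member probe sets: TP minus vehicle in females, TP minus vehicle in males (1 array each, no error) and males minus females adjusted for treatment, with limma standard errors as bars and dim probe sets in grey. Female differences near 0.3 are seen for Alas2, 1427865_at of Hbb-b2 and 1416464_at of Slc4a1, but not for the other probe sets of Hbb-b2 and Slc4a1. The dim 1417337_at of Epb42 has -0.27. The sex differences scatter around 0.

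Further genes of the red cell were read from 5 lists, drawn up with earlier results of these data known, with 1 probe set per gene, the one with the highest mean. Of 78 entries 65 were measured, 49 of them above the dim level. Between the sexes 0 of 65 passed by limma (smallest adjusted p = 0.325) and 8 had an unadjusted p under 0.05, where 11.5% of all genes did. Without the male TP array 1 male array is left, so these lists are given no test there. In females both TP arrays lay above both vehicle arrays for 10 of 65 genes and below them for 16, where 13.4% and 24.7% of all genes did. The lists' median female difference was -0.03, against -0.02 over all genes.

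Among the globin chains, Hbb-y and Hbb-bh1, the embryonic beta-like chains, were dim at 3.56 and 3.73, with female differences of 0.0066 and 0.16. The single-gene probe sets of the adult alpha chains, Hba-a1 and Hba-a2, were dim too and had -0.16 and -0.00063, unlike the bright probe sets that these genes share. None of the 5 genes measured from this list, which leaves out Hbb-b2, was above the dim level.

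Of haem synthesis and iron supply, all 16 measured genes were above the dim level, as these enzymes work in most cells. Their median female difference was -0.03. Both TP arrays lay above both vehicle arrays for 1 of 16 and below for 4, where 13.4% and 24.7% of all genes did. Alad and Cpox, enzymes of the middle of the pathway, had female differences of -0.06 and 0.02 and sex differences of -0.21 (limma adjusted p = 0.355) and -0.18 (limma adjusted p = 0.465). Without the male TP array these were -0.15 and -0.05. Slc25a37, the mitochondrial iron importer of red cell precursors, was the 1 gene with TP females above, and is named after its values were seen. It stood at 6.55 on both vehicle female arrays, at 6.66 and 6.70 on the TP female arrays, at 6.56 on the male vehicle and at 6.74 on the male TP array.

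Of the red cell membrane and its skeleton, 17 genes were measured and 12 were above the dim level. Both TP female arrays lay above for 0 of the 17 and below for 8, where 13.4% and 24.7% of all genes did. The median female difference was -0.09. Gypc, a glycophorin, had -0.20 in females and -0.34 in males, and Tspan33, a membrane protein of red cell precursors, had -0.11 and -0.17. These went the opposite way to 1416464_at of Slc4a1, whose 3 probe sets did not share a direction. Among 12 erythroid transcription factors and the erythropoietin receptor, Zfpm1, the partner of GATA1, had -0.27 in females and -0.09 in males, and Lmo2 had -0.04 and 0.09. Gata1 and Klf1, named for their role after their values were seen, had -0.01 and -0.06 in females and 0.18 and 0.14 in males. For 15 red cell enzymes and maturation genes the median female difference was 0.03. TP females lay above for 6 and below for 1, where 13.4% and 24.7% of all genes did. Xpo7, an exportin of maturing red cells, had 0.17 in females and 0.15 in males, Car2, a carbonic anhydrase, 0.10 and -0.10, and Prdx2, a peroxidase abundant in red cells, -0.01 and -0.11.

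Other cell types that the dissection could hold were read beside the members, and their part in the members' values was not tested. Bone and marrow stroma genes had the largest differences of these lists. Of 8 measured, 4 were above the dim level. Both TP female arrays lay above for 6 of 8 and below for 1, where 13.4% and 24.7% of all genes did. The summed linear level of the list was 1224 and 1216 with TP against 1069 and 1086 with vehicle in females. In males it was lower with TP, at 999.3 against 1062. Ibsp, a bone matrix protein, stood at 6.19 and 6.04 with TP against 4.54 and 4.41 with vehicle in females, and at 3.49 with TP against 4.61 with vehicle in males. In females the bone sum and the shared globin probe sets were both higher with TP. In males the globin differences ran from 0.03 to 0.18. The SD of 0.21 between the 2 male arrays is over all probe sets, dim ones included, and does not measure the spread of bright ones. With 1 male array per treatment, no male direction is read, and a link between bone and globin signal was not tested.

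Granule genes of neutrophils and myeloid cells, which also travel in blood and marrow, did not follow the globin readings. Their summed level was 398.0 and 379.8 with TP against 421.1 and 401.7 with vehicle in females, and 405.4 with TP against 492.3 with vehicle in males. Of 13 genes, 6 were above the dim level. TP females lay above for 1 and below for 4, where 13.4% and 24.7% of all genes did. S100a8 stood at 4.86 and 4.79 with TP against 5.01 and 4.93 with vehicle in females, and at 5.21 against 5.79 in males, the highest array for S100a8 being the male vehicle one. S100a9 had differences of -0.19 in females and -0.89 in males.

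Platelet genes, 6 of 9 above the dim level, gave summed levels of 892.3 and 927.1 with TP and 950.8 and 943.8 with vehicle in females. Lymphocyte genes, 4 of 11 above that level, gave 319.4 and 328.8 with TP and 357.2 and 315.8 with vehicle in females. For genes of plasma proteins made in liver, 10 of 12 were dim, with sums from 221.2 to 239.2 on the 6 arrays. Endothelial genes mark the vessels themselves. Both TP female arrays lay below for 8 of 12, where 24.7% of all genes did, and all 12 had negative female differences. Their sums of 3103 and 3315 with TP and 3312 and 3432 with vehicle in females overlapped, and in males they were 3012 with TP and 3117 with vehicle.

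**Figure D4:**
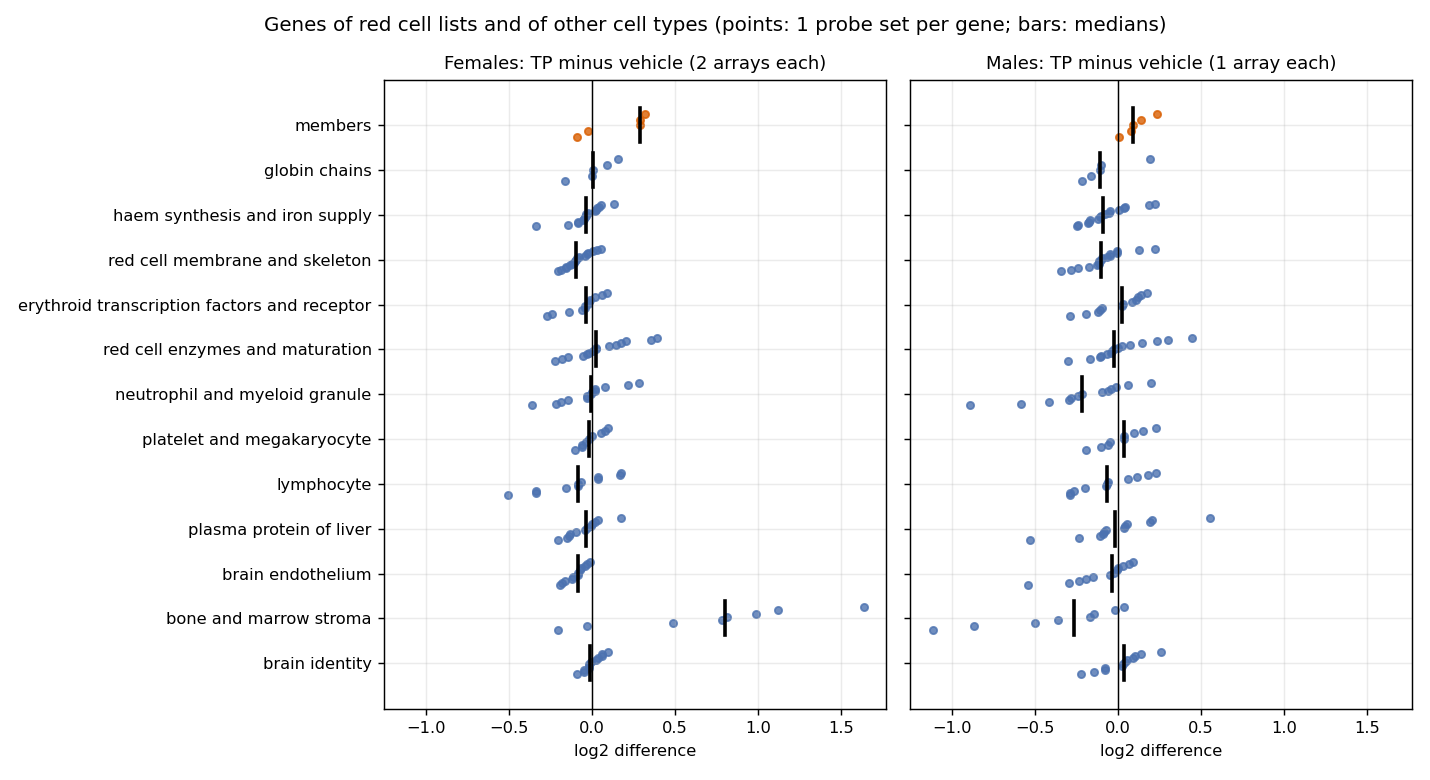
Log2 differences of TP minus vehicle in females (left) and males (right) for the member genes, the further red cell lists and lists of other cell types (points are genes with 1 probe set each, bars are medians). The members' female median was 0.29 over 5 genes with 1 probe set each, and 0.10 over all member probe sets. The female values chose the members, so nothing is read from their place beside the other lists. Red cell list medians ran from -0.09 to 0.03 in females. The bone median was 0.80 in females and -0.26 in males.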

How the data were processed

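Expression was measured with Affymetrix 3' expression arrays on pooled whole-brain RNA. The deposited values are log2 expression values that the authors made with RMA, per the submitters' processing notes, which name no version. The 64 array controls were left out, and probe sets were named through the platform's annotation, of which 34945 had 1 gene, 932 several and 9160 none. Differences came from linear models in limma 3.58.1 (R 4.3.3; two-sided moderated tests, no intensity trend) over 45037 probe sets, with Benjamini-Hochberg adjustment over all of them and 0.05 as the threshold. The female comparison used the 4 female arrays and the sex comparison an additive model of sex and treatment over 6 arrays. The fit was tested on simulated data. The number of arrays limits the precision. Summed levels are sums of linear values over a list, 1 probe set per gene. Python 3.11.15 with pandas 2.3.3 was used for summaries and matplotlib 3.10.9 for plots.

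The members and lists were chosen with earlier results of these data known. Named were every probe set of the members, up to 4 genes of a list with the smallest p between the sexes, sex-linked check genes, and the 8 genes most like the members over the arrays. The list of red cell enzymes also holds Asb17, for which no role in red cells is known here. Other settings tried were 1 probe set or the mean per gene, no dim probe sets, 2 other scalings, an intensity trend, a block for the replica arrays, 1 treatment at a time, and each array left out.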

Additional observations from a re-analysis of the deposited data

How the results depend on the processing

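In the sex comparison 10 probe sets passed, and 0 members passed under any setting. Where a setting leaves 1 male array, that 0 is not read, since the female values chose the genes. With 1 probe set per gene, or with probe sets averaged per gene, 3 passed, without dim probe sets 1, with an intensity trend 49 and with TP arrays alone 17, and leaving out 1 array gave 7 (without female vehicle array 2) to 19 (without the male vehicle array). The members' median sex difference of 0.04 was 0.10 with 1 probe set per gene, -0.0079 with probe sets averaged per gene and -0.0031 without female vehicle array 2. With 1 array left out the median female difference lay between 0.060 and 0.076. The median female difference of 0.10 was 0.29 with 1 probe set per gene, 0.29 without dim probe sets and 0.24 with the shared globin probe sets, a setting chosen after seeing the data. The smaller median came with the dim probe sets. The median TP difference over both sexes, 0.17, was 0.095 with probe sets averaged per gene, and between 0.094 (without female TP array 2) and 0.22 (without female TP array 1) with 1 array left out, being 0.10 without the male TP array. With the replica arrays as a replicate block, 7 probe sets passed and the female median was 0.10. The original and replica arrays deviated together weakly (r = 0.11 over 45037 probe sets), which does not pair them. Leaving out the male TP array for the shared globin probe sets and the red cell lists was chosen after seeing the data. Signal near background limits 5 of 9 probe sets.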

Other observations

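Genes whose levels ran most like the mean of the 5 member genes over the 6 arrays were sought among 643 other genes that were not dim and ranged over at least 0.5 log2 units. The 8 most alike by Pearson r were Kcnma1 (0.95), a potassium channel, Psg28 (0.95), a pregnancy-specific glycoprotein, Erdr1 (0.94), Washc4 (0.90), Gm9222 (0.85), Rnft1 (0.85), Rsad2 (0.83), an interferon-induced gene, and Megf11 (0.83). The r values describe 6 arrays that share treatments and are not tested, and 4 of the 643 genes reached 0.9. Psg28 stood at 4.59 and 4.89 on the vehicle female arrays, at 5.81 and 5.45 on the TP female arrays, at 5.05 on the male vehicle and at 6.11 on the male TP array.

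Catalase, Cat, which is abundant in red cells and present in other cells, stood at 9.57 and 9.85 on the vehicle female arrays, at 9.91 and 9.93 on the TP female arrays, at 9.53 on the male vehicle array and at 9.97 on the male TP array. All 3 TP arrays lay above the 3 vehicle arrays, and the gene was named after its values were seen. This order held for 3 of the 65 genes of the red cell lists, where it held for 6.83% of all probe sets.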
